A study of Mus musculus with 2 samples.

Results

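The genes described are 10 members of the response driven by NRF2, a transcription factor encoded by Nfe2l2, and of the path from cystine uptake to glutathione. They are Nfe2l2, Slc7a11, Gclc, Gclm, Nqo1, Hmox1, Srxn1, Txnrd1, Gstp3 and Gstm1, taken by symbol from a table of 32286 genes, and all 10 were found. Their transcripts were counted in single nuclei from regenerating mouse liver, in 1 Cox10-/- library and 1 wild-type library. Cox10 encodes a farnesyltransferase needed to build the heme of cytochrome c oxidase, the last complex of the mitochondrial respiratory chain. The mice of both libraries had a floxed Cox10 allele, and AAV8-Cre or AAV8-GFP was given 4 weeks before a 70% partial hepatectomy. AAV8 mainly reaches hepatocytes, so other cell types of the liver may keep Cox10 in either animal. The labels do not say which virus each animal received, and strain, sex, age and the floxed exon are not given. One label field puts the tissue at 4 weeks after the operation, while the treatment protocol puts dissection at 4 days. Perfused and digested liver was strained and its nuclei were isolated, with 7000 nuclei loaded per sample on a droplet kit that reads the 3′ ends of transcripts.

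NRF2 is held low by KEAP1, which marks it for degradation. When oxidants or electrophiles modify KEAP1, NRF2 accumulates, pairs with small MAF proteins and binds antioxidant response elements (AREs) beside its target genes. Slc7a11 encodes the light chain of the cystine/glutamate exchanger that brings in cystine, and the product of Gclc and Gclm joins cysteine to glutamate in the rate-limiting step of glutathione synthesis. In liver, glutathione and its transferases handle peroxides, drugs and other electrophiles, and Slc7a11 is also a target of ATF4, the factor of the amino acid and mitochondrial stress responses.

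Promoter windows of 300 bases, 250 before and 50 after a RefSeq start in GRCm38.p6, were at hand for 8 of the 10 members. The windows of Slc7a11, Srxn1 and Gclm are shown because Slc7a11 and Srxn1 stood out in the nuclei described last, whereas Gclm, a classical NRF2 target, did so less. Capitals mark the matches to 3 motifs searched on both strands, the ARE core TGACNNNGC, the composite site TGATGCAA at which ATF4 pairs with C/EBP factors, and the AP-1 site TGAGTCA. The Slc7a11 window is chr3:50443564-50443863 on the minus strand, the Srxn1 window chr2:152105274-152105573 on the plus strand and the Gclm window chr3:122245307-122245606 on the plus strand.
Slc7a11: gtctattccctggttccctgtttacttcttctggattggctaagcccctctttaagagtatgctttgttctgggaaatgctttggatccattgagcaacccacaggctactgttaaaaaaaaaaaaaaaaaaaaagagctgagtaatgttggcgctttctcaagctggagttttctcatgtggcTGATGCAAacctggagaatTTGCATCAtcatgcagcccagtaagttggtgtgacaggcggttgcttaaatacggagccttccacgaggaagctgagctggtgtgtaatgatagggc
Srxn1: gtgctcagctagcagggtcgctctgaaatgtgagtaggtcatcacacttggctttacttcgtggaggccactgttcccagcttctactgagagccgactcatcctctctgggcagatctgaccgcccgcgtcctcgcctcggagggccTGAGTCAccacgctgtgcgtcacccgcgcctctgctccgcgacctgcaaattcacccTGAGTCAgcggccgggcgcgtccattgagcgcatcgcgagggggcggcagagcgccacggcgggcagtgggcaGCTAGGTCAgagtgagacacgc
Gclm: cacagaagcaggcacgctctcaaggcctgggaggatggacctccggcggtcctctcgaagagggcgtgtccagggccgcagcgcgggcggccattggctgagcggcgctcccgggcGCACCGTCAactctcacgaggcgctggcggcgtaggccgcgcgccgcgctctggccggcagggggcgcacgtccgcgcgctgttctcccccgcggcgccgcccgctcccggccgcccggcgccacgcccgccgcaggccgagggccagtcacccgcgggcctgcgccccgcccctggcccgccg
The Slc7a11 window held 2 TGATGCAA matches, at -66 on the plus and -47 on the minus strand of the window, counted from 0 at the first transcribed base. These letters were in 0.895% of 32851 promoter windows. The Srxn1 window held 2 TGAGTCA matches, at -102 and -45, letters found in 5.20% of windows, and 1 ARE core at 28. The match at -45 is followed by gc, so its letters differ from the ARE core searched in 1 place, TGAG for TGAC. An ARE core lay at -134 in the Gclm window, at -240 in that of Nfe2l2 and at -92 in 1 of 3 Txnrd1 windows, against 12.4% of all windows. The windows of Gstp3, Gstm1 and Nqo1 held none of the 3 motifs. A match describes letters and is not evidence of binding.

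UMIs (unique molecular identifiers) each count 1 captured transcript. There were 14476400 UMIs in 5167 Cox10-/- nuclei (median 2291 per nucleus) and 17703804 UMIs in 5448 wild-type nuclei (median 2853.5). Only 7 barcodes occurred in both. Clusters were named from marker genes, which gave 1753 Cox10-/- and 5198 wild-type hepatocyte-like nuclei and 2976 Cox10-/- and 143 wild-type nuclei of other named types. Nuclei of 1 animal are not replicates, so no test of the genotype was possible, and the 95% intervals given throughout are exact and cover counting error only. Levels are CPM, a gene's UMIs divided by all UMIs of the group on the usual scale of that unit. A gene was called higher or lower when its ratio was at least 2-fold and its whole interval lay beyond 1.5-fold. Cox10 itself had 207 UMIs (39.1 CPM) in Cox10-/- and 587 UMIs (34.7 CPM) in wild-type hepatocyte-like nuclei, a ratio of 1.13 (0.958 to 1.32). A tag from the 3′ end outside a deleted exon would not show the deletion, so this neither supports nor contradicts the labels.

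The Cox10-/- hepatocyte-like nuclei were not of one kind. One cluster of 961 nuclei had a median of 1175 UMIs and 6257 CPM of the 29 cytoplasmic ribosomal protein genes checked, and the other 792 nuclei had 4444.5 UMIs and 1574 CPM. Wild-type hepatocyte-like nuclei had 2855.5 UMIs and 1091 CPM. The nuclei outside this shallow cluster are called the deeper ones, and members' ratios to wild-type nuclei are also given without it. All 13 hepatocyte markers were detected in the hepatocyte-like nuclei of both libraries. They were also detected in Cox10-/- nuclei of other types, where they summed to 26152 CPM against 46566 CPM in hepatocyte-like nuclei, so hepatocyte transcripts were counted in nuclei of other types.

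In hepatocyte-like nuclei, 5 of the 10 genes were called higher in the Cox10-/- than in the wild-type library and 0 lower. They were Slc7a11, Hmox1, Srxn1, Gstp3 and Gstm1. Over 12576 genes tested, 8.75% were called higher and 3.28% lower. All 10 members had enough UMIs to be tested, and their median log2 ratio was 1.45, against -0.02 over all genes. Without the shallow cluster 3 of the 9 members tested were called higher, namely Srxn1, Gstp3 and Gstm1, against 4.66% of genes, and the median was 0.75 against 0.02.

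Nfe2l2 (mm10 chr2:75675513-75704641) encodes NRF2 itself. It stood at 159 CPM (843 UMIs) in Cox10-/- and 142 CPM (2398 UMIs) in wild-type hepatocyte-like nuclei. The ratio was 1.12 (1.04 to 1.22), and 1.21 without the shallow cluster, so its transcript moved little. Thinned to 1000 UMIs per nucleus, 13.1% of Cox10-/- and 13.8% of wild-type hepatocyte-like nuclei held an Nfe2l2 UMI. NRF2 is regulated mainly through its protein, which these data do not measure.

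Gclc (chr9:77754535-77794485) encodes the catalytic subunit of glutamate-cysteine ligase. It had 1320 UMIs (249 CPM) in Cox10-/- and 2431 UMIs (144 CPM) in wild-type hepatocyte-like nuclei, a ratio of 1.74 (1.62 to 1.86). This interval lies above 1 but the ratio is short of 2-fold, so Gclc was not called. The deeper Cox10-/- nuclei gave 1.66 (1.54 to 1.79). The 7 wild-type hepatocyte-like clusters ran from 115 to 163 CPM, so all of them lay below the 237 and 287 CPM of the Cox10-/- clusters. Gclm (chr3:122245557-122270732), its regulatory subunit, had 91.8 CPM in Cox10-/- and 58.7 CPM in wild-type nuclei, a ratio of 1.56 (1.401 to 1.75), and 1.29 (1.13 to 1.46) without the shallow cluster.

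Txnrd1 (chr10:82833951-82897712), the cytosolic thioredoxin reductase, also had a ratio above 1 but short of 2-fold. It had 105 CPM (558 UMIs) in Cox10-/- and 65.7 CPM (1112 UMIs) in wild-type hepatocyte-like nuclei, a ratio of 1.60 (1.45 to 1.78), and 1.68 (1.501 to 1.88) without the shallow cluster. Wild-type clusters ran from 54.8 to 80.8 CPM, below the 89.4 CPM of the shallow and 110 CPM of the other Cox10-/- cluster. The intervals overlapped, with 73.6 to 108 CPM in the shallow cluster and 54.9 to 115 CPM in the highest wild-type cluster. Nqo1, a quinone reductase and a textbook NRF2 target, was nearly absent, with 11 UMIs in Cox10-/- and 17 UMIs in wild-type hepatocyte-like nuclei. Its ratio of 2.07 (0.876 to 4.68), or 1.23 (0.354 to 3.47) without the shallow cluster, was not resolved at this depth.

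Slc7a11 (chr3:49892526-50443614) was nearly silent in wild-type hepatocyte-like nuclei, where 5 UMIs in 5198 nuclei gave 0.295 CPM. The 1753 Cox10-/- hepatocyte-like nuclei held 35 UMIs (6.61 CPM), a ratio of 22.4 (8.73 to 73.2), called higher. The shallow cluster held 25 of these UMIs (20.1 CPM) and the deeper nuclei 10 (2.47 CPM), with a ratio to wild-type of 8.35 (2.60 to 31.1) on too few UMIs to be called. After thinning, 1.06% of Cox10-/- hepatocyte-like nuclei (0.126% of the deeper ones) held an Slc7a11 UMI, against 0.0385% in wild-type. Nuclei of other named Cox10-/- types gave 0.743% and 7.52 CPM (5.68 to 9.77) at a median depth of 2315 UMIs, against 1664 UMIs in hepatocyte-like nuclei. The level of the deeper hepatocyte-like nuclei (2.47 CPM, 1.18 to 4.54) lay below that of the other types and that of the shallow cluster (20.1 CPM, 13.0 to 29.7) above it, with no overlap of intervals. The part of RNA from other cells in these levels was not tested.

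Srxn1 (chr2:152105516-152111376) encodes sulfiredoxin, which restores overoxidised peroxiredoxins. It had 9.07 CPM (48 UMIs) in Cox10-/- and 2.42 CPM (41 UMIs) in wild-type hepatocyte-like nuclei, a ratio of 3.74 (2.42 to 5.82), called higher. The call held without the shallow cluster, at 2.65 (1.56 to 4.43). Other Cox10-/- types had 10.2 CPM, a level whose interval overlaps that of hepatocyte-like nuclei. Hmox1, which encodes the inducible heme oxygenase, had 5.10 CPM (27 UMIs) in Cox10-/- and 1.24 CPM (21 UMIs) in wild-type hepatocyte-like nuclei, a ratio of 4.11 (2.24 to 7.65), called higher. Without the shallow cluster the ratio was 2.78 (1.31 to 5.74) and was not called. Hmox1 in the other Cox10-/- types together stood at 26.3 CPM, above hepatocyte-like nuclei. Of the 196 UMIs behind this level, 147 were in myeloid-like nuclei.

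Gstp3 (chr19:4057477-4059569) and Gstm1 (chr3:108012255-108017973) encode glutathione S-transferases, which join glutathione to electrophiles. Gstp3 had 168 CPM (891 UMIs) in Cox10-/- and 4.49 CPM (76 UMIs) in wild-type hepatocyte-like nuclei, a ratio of 37.5 (29.6 to 48.0). Gstm1 had 227 CPM (1199 UMIs) in Cox10-/- and 28.2 CPM (478 UMIs) in wild-type nuclei, a ratio of 8.02 (7.21 to 8.94). Both were called higher, and the groups lay far apart. Without the shallow cluster the ratios were 25.6 (20.1 to 33.1) and 4.96 (4.39 to 5.62). After thinning, 19.98% of Cox10-/- and 0.539% of wild-type hepatocyte-like nuclei held a Gstp3 UMI, and 28.2% of Cox10-/- and 3.06% of wild-type nuclei held a Gstm1 UMI. Both genes belong to families of related genes, between which reads may have been split. How alike their transcripts are was not measured. Summed over 3 Gstp genes the ratio was 13.2 (11.6 to 15.2), and over 7 Gstm genes 6.75 (6.17 to 7.39). Without the shallow cluster these were 10.2 (8.87 to 11.8) and 4.09 (3.67 to 4.55).

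**Figure D1:**
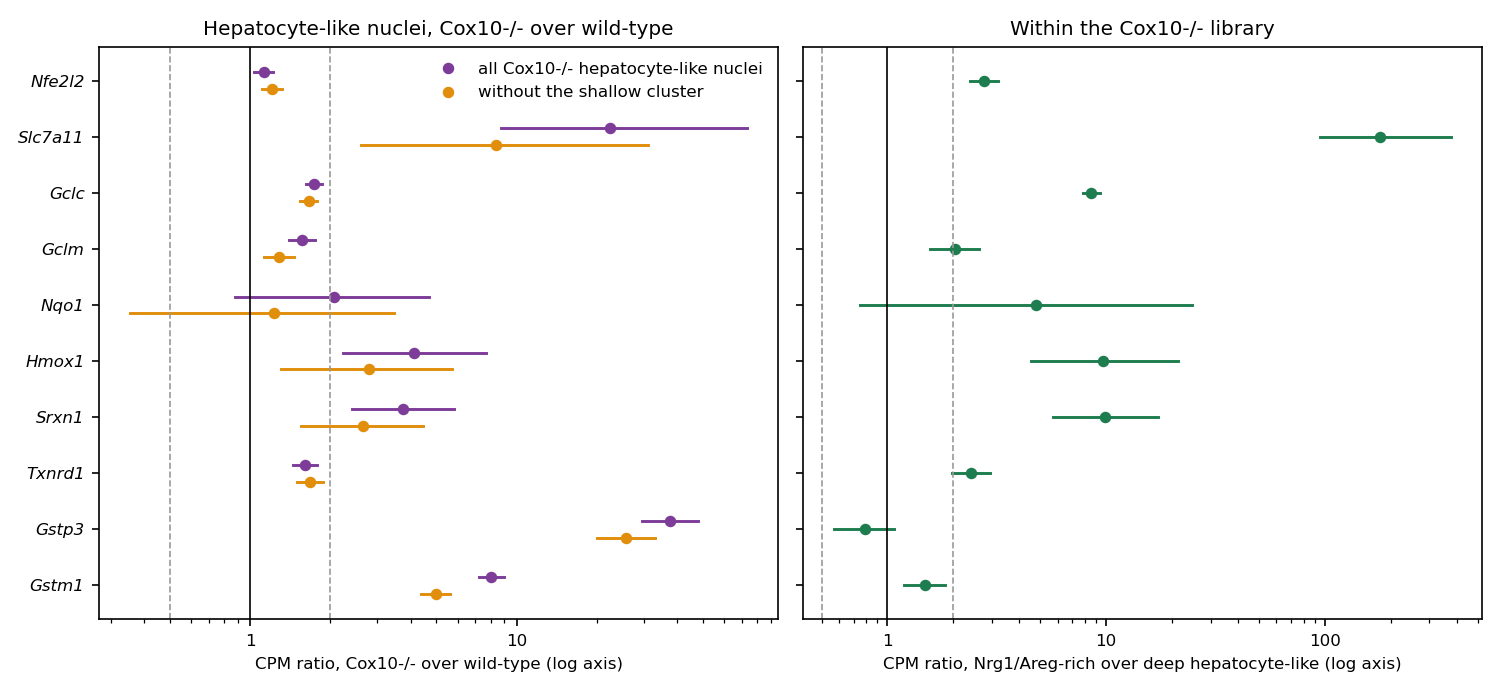
CPM ratios of the 10 genes with 95% counting intervals on log axes: left, Cox10-/- over wild-type hepatocyte-like nuclei, with all Cox10-/- nuclei and without the shallow cluster, and right, Nrg1/Areg-rich over the deeper hepatocyte-like nuclei of the Cox10-/- library. The dashed lines mark 2-fold; Gstp3, Slc7a11 and Gstm1 lie furthest from 1 on the left, at 37.5, 22.4 and 8.02, and Slc7a11 on the right, at 178.5.

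The high Gstp3 level was not limited to hepatocyte-like nuclei. It had 134 CPM in Cox10-/- nuclei of other named types, and 2.43 CPM (1 UMI) in wild-type ones. In the same types Gstm1 had 260 CPM in Cox10-/- and 24.3 CPM in wild-type nuclei, a ratio of 10.7 (5.81 to 22.4). The ratio there was 2.59 (1.47 to 5.05) for Gclm, 1.48 (1.06 to 2.11) for Gclc and 0.714 (0.554 to 0.933) for Nfe2l2. The intervals of Hmox1, Srxn1 and Txnrd1 held 1, and Slc7a11 and Nqo1 had 0 wild-type UMIs. Wild-type nuclei of these types held 12 Gclm, 37 Gclc and 65 Nfe2l2 UMIs. Endothelial-like nuclei were 1411 of the 2976 Cox10-/- and 44 of the 143 wild-type nuclei, and lymphoid-like nuclei 117 and 18. The mix of types and the genotype cannot be told apart in these ratios. Set against the albumin transcript Alb of the same nuclei, Gstp3 had 9.04 UMIs per 1000 Alb UMIs in Cox10-/- hepatocyte-like nuclei and 7.01 to 9.80 in the 5 other named types of that library. Apoa1, another hepatocyte transcript, was more even, at 139 in Cox10-/- hepatocyte-like nuclei and 138 to 146 in the other types. How much of the Gstp3 level outside hepatocyte-like nuclei came from RNA of hepatocytes was not tested. Wild-type hepatocyte-like nuclei had 0.359 Gstp3 UMIs per 1000 Alb UMIs. Gstm1 had 12.2 in Cox10-/- and 2.26 in wild-type hepatocyte-like nuclei. The other Cox10-/- types ran from 14.9 to 18.0, each above the Cox10-/- hepatocyte-like level, with an overlap of intervals for lymphoid-like nuclei alone.

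**Figure D2:**
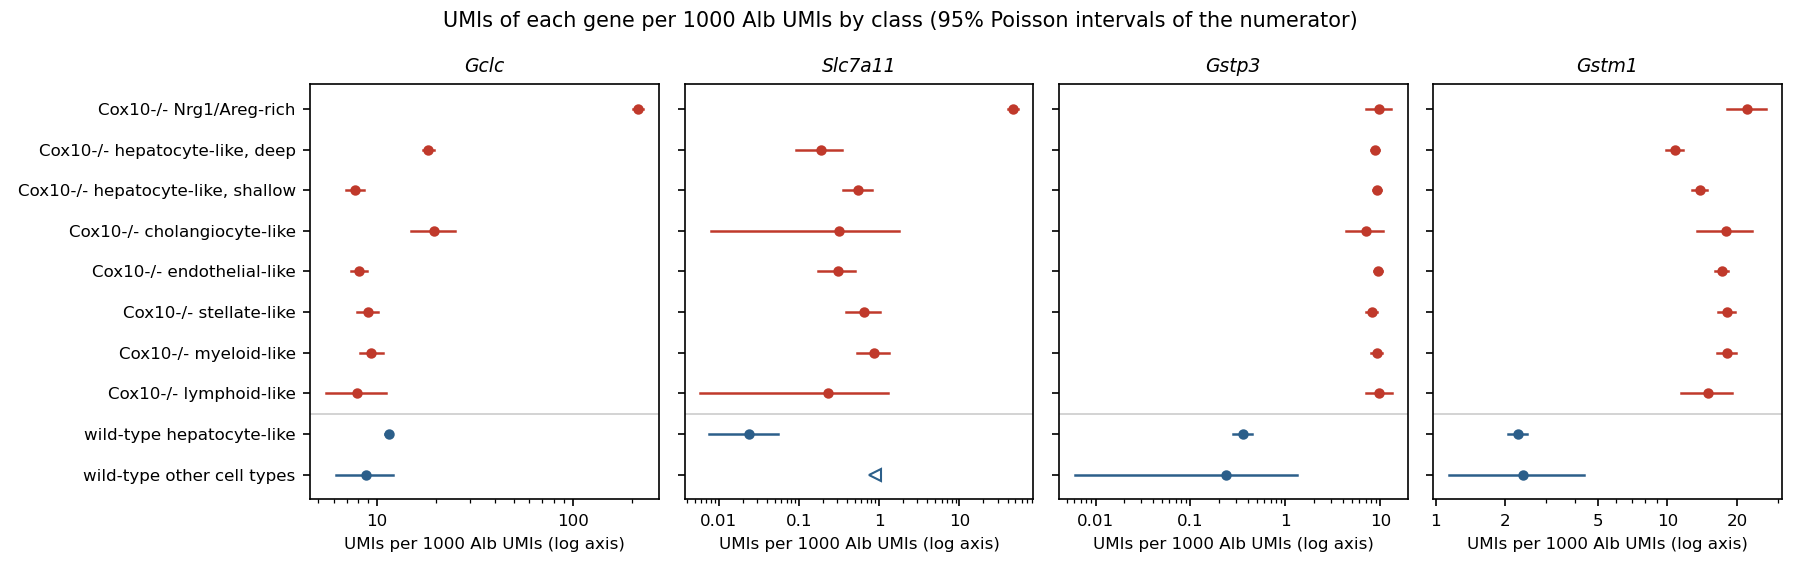
UMIs of Gclc, Slc7a11, Gstp3 and Gstm1 per 1000 Alb UMIs by library and class on log axes, with 95% Poisson intervals of the numerator and an open triangle at the upper end where there were 0 UMIs; deep means without the shallow cluster. Gstp3 lies between 7.01 and 9.80 in the Cox10-/- classes and at 0.359 in wild-type hepatocyte-like nuclei, while Slc7a11 and Gclc stand apart in the Nrg1/Areg-rich nuclei, at 46.8 and 216.

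The rest of the pathway was read from 7 lists of 90 genes without the members. Of 86 tested in hepatocyte-like nuclei, 28 were called higher and 0 lower in Cox10-/- than in wild-type, and the median log2 ratio was 0.45, beside 8.75% and -0.02 over all genes. Without the shallow cluster 12 of 84 were called higher, with a median of 0.37, beside 4.66% and 0.02. The counts of the single lists below stand beside these shares, and in lists of this size 1 gene moves the share a good deal. The ribosomal protein genes moved with these counts, with 23 of 29 called higher at a median of 1.29, and 2 of 29 at 0.53 without the shallow cluster. Immediate early genes, listed as a check on handling, gave 10 of 12 called higher at 1.53, and 9 of 12 at 1.51 without it. Within the Cox10-/- library, 8 of 13 were called higher in hepatocyte-like nuclei than in the other named types, beside 11.6% of genes. What moved these 2 sets of genes, and their part in the pathway counts, was not tested.

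Among NRF2 regulators and partners, 2 of 11 were called higher (median 0.19), the small MAF partners Maff, with 41.9 CPM in Cox10-/- and 7.51 CPM in wild-type nuclei, and Mafk, with 21.0 CPM in Cox10-/- and 8.51 CPM in wild-type nuclei. The count and the median were the same without the shallow cluster. Keap1 had 21.4 CPM in Cox10-/- and 18.8 CPM in wild-type nuclei, a ratio of 1.14 (0.908 to 1.41). Of other NRF2 targets, 14 of 26 were called higher (median 1.07), led by Gstm3 at 26.6-fold (50 UMIs in Cox10-/- and 6 UMIs in wild-type nuclei, and 14.6-fold without the shallow cluster), Gstp2 at 19.4-fold, the efflux pump gene Abcc4 at 7.38-fold and Gsta4 at 4.67-fold. In the Cox10-/- library Gstp2, of the same family as Gstp3, had 29.9 CPM in hepatocyte-like nuclei and 3.76 CPM in the other named types, a ratio of 7.94 (5.28 to 12.3). Without the shallow cluster 6 of 25 were called.

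In the cystine and cysteine list 2 of 13 were called higher (median 0.55), the neutral amino acid carriers Slc1a4 at 7.13-fold and Slc38a2 at 2.22-fold, and 3 of 13 (median 0.40) without the shallow cluster. Slc3a2, the heavy chain that pairs with the Slc7a11 product, had 9.26 CPM in Cox10-/- and 6.09 CPM in wild-type nuclei and was not called (1.52, 1.06 to 2.16). In the glutathione list 3 of 13 were called (median 0.04), the peroxidases Gpx1 and Gpx4 at 3.49-fold and 2.79-fold and the mitochondrial glutathione carrier Slc25a39 at 2.83-fold. None of these 3 held without the shallow cluster, where 0 of 13 were called. The S-transferase list gave 9 of 19 (median 1.11), and 4 of 18 without the shallow cluster. In the thioredoxin list 5 of 11 were called (median 0.78), including Txnip at 2.63-fold and Prdx5 at 2.53-fold, and 1 of 11 without it. Of the heme and iron list 2 of 6 were called (median 0.26), the ferritin chains Fth1 at 2.43-fold and Ftl1 at 2.23-fold, and 0 of 6 without it.

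Genes called higher in hepatocyte-like nuclei were often as abundant or more abundant in the other named types of the same library. Of 1101 such genes, 265 (24.1%) had a level in Cox10-/- hepatocyte-like nuclei whose ratio to other Cox10-/- types lay above 1 with its whole interval. For 461 the whole interval lay below 1, and for 375 it held 1. Among the 28 pathway genes 8 lay above 1 (28.6%), which were Ftl1, Gsta2, Gstp2, Maff, Mafk, Mgst1, Slc38a2 and Txnip. Another 8 lay below 1, and 12 had an interval that held 1. With the deeper nuclei alone, 236 of 577 such genes lay above 1 (40.9%) and 255 below. Of 12 pathway genes 5 lay above (41.7%) and 4 below.

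Of the 5 members called, Gstp3 was above the other types with all hepatocyte-like nuclei (1.26, 1.15 to 1.38), but below them with the deeper nuclei alone (0.859, 0.768 to 0.960), so its direction rests on the shallow cluster. Gstm1 was below the other types in both, at 0.870 (0.809 to 0.936) and, with the deeper nuclei, 0.538 (0.489 to 0.591). Hmox1 was below them too, at 0.194 (0.124 to 0.291) and 0.131 (0.0704 to 0.225). Myeloid-like nuclei held 147 of the 196 Hmox1 UMIs of these types. The remaining types ran from 3.17 to 9.23 CPM of Hmox1. Their intervals overlapped that of all hepatocyte-like nuclei (5.10 CPM, 3.36 to 7.42). The intervals of Slc7a11 and Srxn1 held 1 with all nuclei, and with the deeper nuclei both were below the other types, at 0.328 (0.149 to 0.649) and 0.628 (0.386 to 0.993). Of the 5 members not called, Gclc was 1.88-fold (1.73 to 2.04) its 133 CPM in the other types. Txnrd1 was 1.63-fold (1.44 to 1.85) its 64.5 CPM there and Nfe2l2 1.41-fold (1.28 to 1.56) its 113 CPM. Gclm was at 1.21 (1.07 to 1.37), and at 0.998 (0.866 to 1.15) with the deeper nuclei. The interval of Nqo1 held 1 (1.29, 0.515 to 3.19). Of the single types, myeloid-like nuclei had 180 CPM of Nfe2l2 (161 to 202), overlapping the 149 to 170 CPM of hepatocyte-like nuclei. The Txnrd1 interval of hepatocyte-like nuclei (96.9 to 115 CPM) overlapped those of myeloid-like (70.1 to 98.4 CPM), cholangiocyte-like and lymphoid-like nuclei. For Gclc the overlap was with cholangiocyte-like nuclei alone (148 to 248 CPM, against 236 to 263 CPM). For Nfe2l2 and Txnrd1 the intervals of the remaining types lay below.

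Within the Cox10-/- library, 111 nuclei formed a cluster rich in Nrg1 and Areg, which encode ligands of EGF-family receptors. Nrg1 had 1600 CPM there and 43.5 CPM in hepatocyte-like nuclei, and Areg had 537 CPM in the cluster and 8.50 CPM in hepatocyte-like nuclei. The wild-type library had 1 nucleus in this cluster. Its leading genes were Vmn2r3, Areg, Slc7a11, Pdk4, Nrg1, Tenm4, Maoa, Coro6, Cpe and Acot2. The nuclei were deep, with a median of 4299 UMIs, and 4.16% of their UMIs were mitochondrially encoded in the median. All 13 hepatocyte markers were detected, summing to 19261 CPM, against 46566 CPM in hepatocyte-like nuclei and 26152 CPM in the other named types. Hnf4a stood at 178 CPM, against 282 CPM in hepatocyte-like nuclei and 62.5 CPM in those other types. Of 12 cholangiocyte markers 7 were detected, summing to 444 CPM, with Krt19, Krt7, Cftr, Muc1 and Anxa13 at 0. Endothelial (10 of 18, 79.0 CPM), stellate (9 of 15, 306 CPM), myeloid (7 of 14, 55.3 CPM) and lymphoid (6 of 16, 11.9 CPM) markers were low, and the cluster is called by its leading genes.

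The clustering used these genes, and Slc7a11 is among those that lead the cluster, so the levels in it are a description. The cluster was set against hepatocyte-like nuclei of the same library, where 9.36% of 10390 genes were called higher. Of the 9 members tested, 6 were called higher and 0 lower, with a median log2 ratio of 1.57 against 0.09 over all genes. Against the deeper nuclei alone 7 of 9 were called, where 8.72% of genes were.

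Slc7a11 and Gclc had the largest ratios to hepatocyte-like nuclei among the members tested. Gclc had 2033 CPM (1029 UMIs) in the cluster and 249 CPM in hepatocyte-like nuclei, a ratio of 8.15 (7.505 to 8.85). Slc7a11 had 440.5 CPM (223 UMIs) in the cluster and 6.61 CPM in hepatocyte-like nuclei, a ratio of 66.6 (46.5 to 98.1). Against the deeper nuclei, at 2.47 CPM, the ratio was 178.5 (95.3 to 377). The deeper nuclei gave 8.54 (7.82 to 9.34) for Gclc, below the 9.85 of Srxn1 and 9.72 of Hmox1 given next. The next highest class was myeloid-like at 11.9 CPM for Slc7a11 and hepatocyte-like for Gclc, and neither interval overlapped that of the cluster.

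Nfe2l2 had 474 CPM in the cluster and 159 CPM in hepatocyte-like nuclei, a ratio of 2.98 (2.57 to 3.44). Srxn1 had 63.2 CPM in the cluster and 9.07 CPM in hepatocyte-like nuclei, a ratio of 6.97 (4.31 to 11.1), and 9.85 (5.69 to 17.2) against the deeper nuclei. Txnrd1 had 267 CPM in the cluster and 105 CPM in hepatocyte-like nuclei, a ratio of 2.53 (2.08 to 3.06). These 3 were called higher and were highest in the cluster, with no overlap with the next class. Hmox1 had 33.6 CPM in the cluster and 5.10 CPM in hepatocyte-like nuclei, a called ratio of 6.58 (3.37 to 12.5), and 9.72 (4.51 to 21.3) against the deeper nuclei. Its level was higher still in Cox10-/- myeloid-like nuclei, at 87.5 CPM, where the enzyme breaks down heme from red cells. Wild-type myeloid-like nuclei had 46.4 CPM on 6 UMIs.

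Gclm, Gstp3 and Gstm1 were not called against all hepatocyte-like nuclei. Gclm had 154 CPM in the cluster and 91.8 CPM in hepatocyte-like nuclei (1.68, 1.30 to 2.13), not called, and was called only against the deeper nuclei (2.04, 1.57 to 2.62). Gstp3 had 90.9 CPM in the cluster and 168 CPM in hepatocyte-like nuclei (0.540, 0.392 to 0.726), and 0.790 (0.570 to 1.07) against the deeper nuclei. Gstm1 had 207 CPM in the cluster and 227 CPM in hepatocyte-like nuclei (0.916, 0.743 to 1.12), and against the deeper nuclei its ratio turned to 1.48 (1.19 to 1.82), not called. Gstp3 per 1000 Alb UMIs was 9.65 in the cluster, within the range of the other Cox10-/- classes. Nqo1 had 3 UMIs in the cluster and was not tested. Over the 7 named classes of the library the cluster was highest for 7 of 10 members, where for Gclm and Nqo1 the interval overlapped that of the next class.

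**Figure D3:**
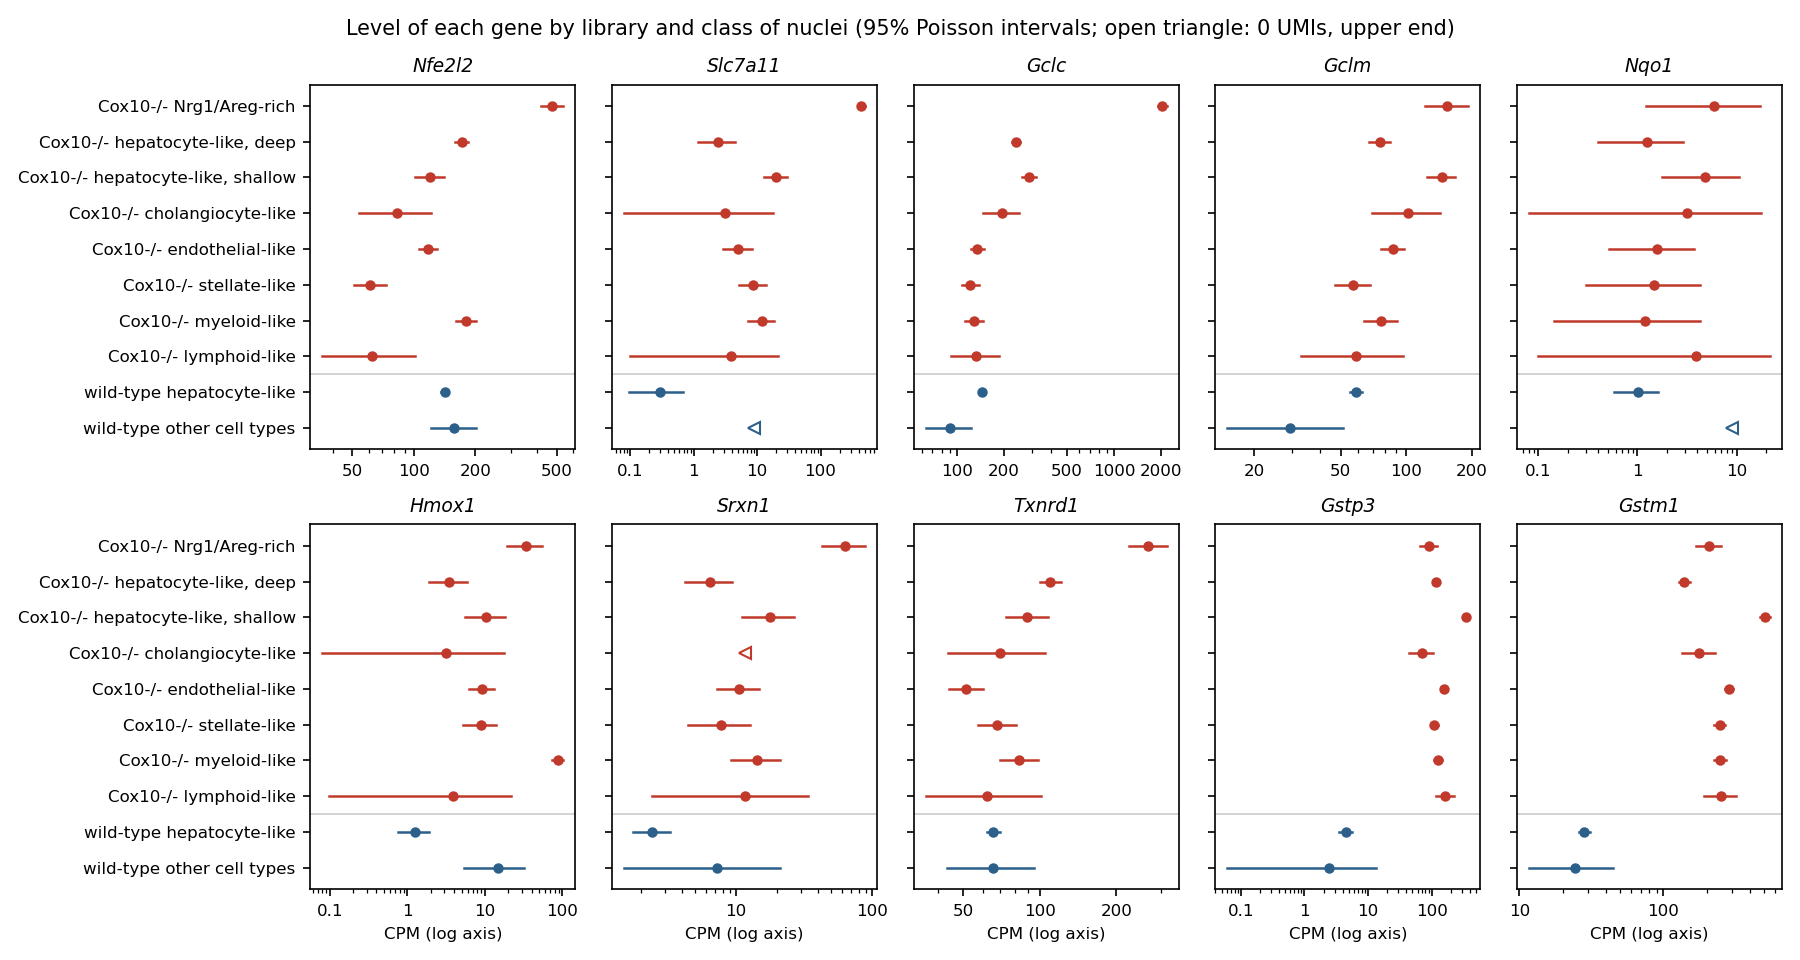
CPM of each gene on a log axis in each class of nuclei of the Cox10-/- library and, below the line, in wild-type hepatocyte-like and other named nuclei, with 95% Poisson intervals; open triangles mark upper ends for 0 UMIs, and deep means without the shallow cluster. The Nrg1/Areg-rich nuclei lead for Slc7a11 (440.5 CPM) and Gclc (2033 CPM). Across the Cox10-/- classes Gstp3 runs from 69.6 to 342 CPM and Gstm1 from 140 to 508 CPM, both highest in the shallow hepatocyte-like class.

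The transcripts were spread unevenly over the nuclei of the cluster. Of its 111 nuclei 43 (38.7%) held an Slc7a11 UMI, with a highest count of 30, and 97 held a Gclc UMI, with a median of 3 and a highest count of 134. Without the nucleus of 134 UMIs Gclc stood at 1812 CPM. The 10 nuclei with the most UMIs of the gene held 63.2% of the cluster's Slc7a11 and 50.1% of its Gclc. The cluster held 223 of the 324 Slc7a11 UMIs of the Cox10-/- library (68.8%) in 2.15% of its nuclei. Of 18 nuclei with 5 or more Slc7a11 UMIs, 16 lay in it.

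Within the cluster the genes went together only in part. The 43 nuclei with an Slc7a11 UMI had 4094 CPM of Gclc, and the 68 without had 752 CPM, at median depths of 4006 and 4408.5 UMIs. Txnrd1 had 469 CPM in the nuclei with Slc7a11 and 141 CPM in those without, with intervals that did not overlap. Srxn1 had 108 CPM with Slc7a11 and 35.2 CPM without, also apart. For Nfe2l2 (418 CPM with, 509 CPM without), Gclm (196 CPM with, 128 CPM without), Gstp3 (82.5 CPM with, 96.1 CPM without) and Gstm1 (222 CPM with, 199 CPM without) the intervals overlapped. Even the 68 nuclei without an Slc7a11 UMI had more Gclc than hepatocyte-like nuclei, at 752 against 249 CPM.

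**Figure D4:**
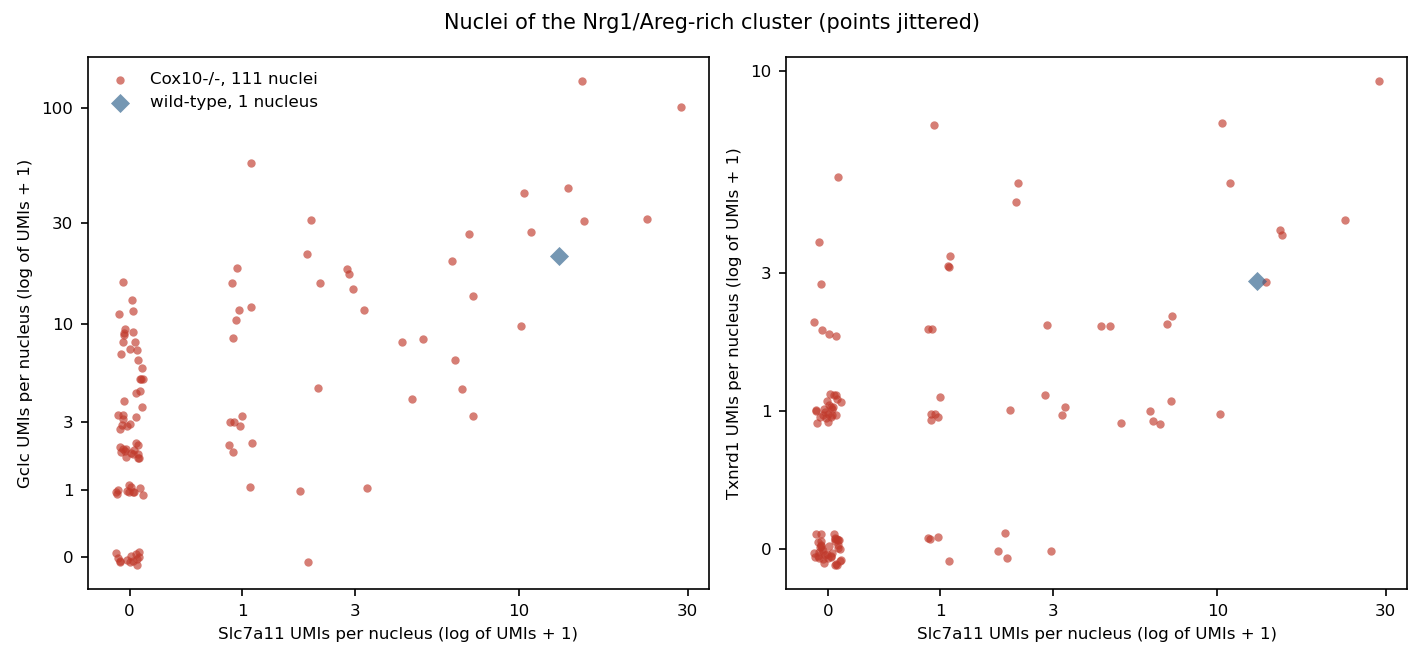
UMIs of Gclc (left) and Txnrd1 (right) against UMIs of Slc7a11 per nucleus of the Nrg1/Areg-rich cluster, on log axes of UMIs + 1 with jittered points. The 111 Cox10-/- nuclei spread widely, with most at 0 Slc7a11 UMIs, a highest Slc7a11 count of 30 and a highest Gclc count of 134, and the 1 wild-type nucleus has 13 and 22.

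A rule that ignores the clusters took mostly nuclei of the Nrg1/Areg-rich cluster, but left out many of its 111 nuclei. Any nucleus with at least 1 UMI of Nrg1 and of Areg was taken, which gave 62 Cox10-/- nuclei, 56 of them in the cluster, and 1 wild-type nucleus. The remaining 5091 Cox10-/- nuclei are called the rest, and they include the other 55 nuclei of the cluster. Slc7a11 had 187 CPM in those 55 and 644 CPM in the 56, and Gclc 1387 CPM in the 55 and 2549 CPM in the 56. Slc7a11 had 601 CPM in the 62 nuclei and 9.71 CPM in the rest, and Gclc had 2425 CPM in the 62 nuclei and 193 CPM in the rest. For Nfe2l2 the levels were 437 CPM in the 62 nuclei and 136 CPM in the rest, for Srxn1 80.3 CPM in the 62 and 9.71 CPM in the rest, and for Txnrd1 295.5 CPM in the 62 and 81.4 CPM in the rest. The intervals were apart for these 5 genes, and also for Gclm, with 164 CPM in the 62 nuclei and 80.7 CPM in the rest, and for Gstp3, which was lower at 64.2 CPM in the 62 nuclei against 144 CPM in the rest. They overlapped for Hmox1 (19.3 CPM in the 62, 18.3 CPM in the rest) and Gstm1 (202 CPM in the 62, 241 CPM in the rest). Slc7a11 and Gclc were no part of this rule, but with 56 of the 62 nuclei in the cluster they helped to form, the levels are no separate support. The 6 nuclei outside the cluster had 1264 CPM of Gclc (38 UMIs), 266 CPM of Txnrd1 (8 UMIs) and 200 CPM of Slc7a11 (6 UMIs, all in 1 nucleus). Nfe2l2 stood at 133 CPM (4 UMIs) in those 6, and Gclm and Srxn1 at 33.3 CPM (1 UMI each). The rule picks deeper nuclei, with a median of 5211 UMIs against 2279 UMIs in the rest.

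Shares of nuclei with several of the genes describe the same set. The clustering could draw on these genes, and Slc7a11 leads the cluster, so a high share there is no separate support. With every nucleus thinned to 1000 UMIs and Gstp3 and Gstm1 left out, 64 of 110 nuclei of the cluster (58.2%, 48.4 to 67.5) held UMIs of 2 or more of the 8 other members. The share was 11.0% in hepatocyte-like nuclei of the Cox10-/- library, 10.0% in myeloid-like nuclei and 2.56% to 5.69% in the other named types. In wild-type hepatocyte-like nuclei it was 5.28%.

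Of the 84 other pathway genes tested, 17 were called higher and 6 lower in the cluster than in hepatocyte-like nuclei of the library, with a median log2 ratio of 0.02. Over all genes 9.36% were called higher and 4.39% lower, at a median of 0.09. Against the deeper nuclei 19 of 81 were called higher and 8 lower, with a median of 0.29, beside 8.72% of genes higher and 5.10% lower at 0.12. Abcc4 had 442 CPM in the cluster and 5.67 CPM in hepatocyte-like nuclei, a ratio of 78.1, but stood at 86.1 CPM in other Cox10-/- types. Among other NRF2 targets Gstp2 was 5.16-fold, the malic enzyme Me1 4.65-fold and Osgin1 4.42-fold higher. Of the NRF2 regulators, Sqstm1, the autophagy receptor p62 that binds KEAP1, had 753 CPM in the cluster and 116 CPM in hepatocyte-like nuclei (6.51-fold), Mafk was 2.73-fold higher, and Keap1 was not called (0.833).

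The cystine and cysteine list split, with 5 genes called higher and 5 lower of 13. Those named by the rule and higher were Slc1a5 at 11.2-fold and Slc1a4 at 6.49-fold, carriers of neutral amino acids, and Csad, a taurine synthesis enzyme, at 4.30-fold. Slc3a2 was also called higher, with 27.7 CPM in the cluster and 9.26 CPM in hepatocyte-like nuclei. Bhmt, which remakes methionine from homocysteine, was lower at 0.247-fold. For glutathione itself, Chac1, which breaks glutathione down, was 6.97-fold, the reductase Gsr 2.98-fold and the synthetase Gss 2.37-fold higher. The S-transferase Gstz1 was lower at 0.481-fold and Blvrb, a biliverdin reductase, higher at 2.54-fold. No gene of the thioredoxin list was called in either direction, nor was any ribosomal protein gene, with median log2 ratios of -0.04 and -0.32, which turned to 0.40 and 0.37 against the deeper nuclei, again with no gene called.

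Likeness of pattern was measured as the Pearson correlation of log2(CPM + 1) over 8 classes of at least 50 nuclei, across genes with at least 200 UMIs. These classes share 2 libraries, and the cluster rich in Nrg1 and Areg is 1 of the 8 points, so the values describe and are not tested. Gclc was most like Trib3 (0.991) and Rnf11 (0.990), Slc7a11 like Htatip2 (0.984) and Iars (0.970), and Nfe2l2 like Atf6 (0.976) and Sdad1 (0.971). Txnrd1 was most like Ubxn4 (0.969) and Acsl4 (0.966), Srxn1 like Ube2v1 (0.968) and Tbc1d20 (0.962), and Gclm like Lemd2 and Nrg1 (both 0.948). Hmox1 was most like Pgd (0.951) and Skil (0.9496), Gstp3 like Cyp3a11 (0.997) and Mif (0.995), and Gstm1 like Grcc10 (0.992) and Saa1 (0.990). Nqo1, with 47 UMIs in all, was not compared.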

How the data were processed

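Single-nucleus libraries of 1 Cox10-/- and 1 wild-type liver were compared. Cell Ranger 7.0 and the mm10 build are named in the submitters' processing notes. The deposited values are whole-number UMI counts for each gene in each nucleus, not normalized by the authors. Every nucleus had 601 to 3999 genes and under 20% mitochondrially encoded UMIs, so a filter had been applied earlier. Whether intronic reads were counted is not given in the sources used here. Gene positions are those of a GENCODE annotation of mm10.

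All deposited nuclei with at least 500 UMIs and 300 genes were kept, and a limit of 10% mitochondrially encoded UMIs, which would leave out 39.3% of Cox10-/- and 71.7% of wild-type nuclei, was an alternative. Scrublet marked 14 Cox10-/- nuclei (0.271%) and 0 wild-type nuclei, so the doublet call did not work, and no others were left out. Counts scaled to 10000 and logged gave 2000 variable genes, 30 principal components, 15 neighbours and Leiden clusters at a resolution of 1.0 with seed 1 (scanpy 1.11.5, numpy 2.4.6, scipy 1.17.1, python 3.11.15). No cluster met the Nrg1 and Areg rule at that resolution, so that cluster was taken at 2.0. Clusters were named from marker lists, with thresholds set after the data were seen, and 313 Cox10-/- and 106 wild-type nuclei stayed unnamed.

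UMIs were summed per library and class. Sums have Poisson intervals, shares Clopper-Pearson ones and ratios conditional binomial ones. Genes reaching 20 UMIs in the 2 sums together were tested against the 2-fold rule, and log2 ratios used a prior of 0.5 UMI. For shares, each nucleus was thinned to 1000 UMIs, which left out 61 Cox10-/- and 4 wild-type hepatocyte-like nuclei. The calling rule was tested on simulated counts. Beside the members, the text names up to 4 genes per list with the largest ratio among those called, the 2 genes most like each member and the genes leading the cluster. Keap1, Slc3a2 and the genes named for their level above other types were chosen after their values were seen. Members and lists were chosen with earlier results of these data known.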

Additional observations from a re-analysis of the deposited data

How the results depend on the processing

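No paired analysis was possible because each genotype had 1 library. Of 112 values of a member's ratio in hepatocyte-like nuclei under the alternatives, 105 stayed on the same side of the calling rule, 5 lost the call and 2 gained it. In the Nrg1/Areg-rich nuclei 57 of 60 did, with 1 lost and 2 gained. No ratio that was called before or after the change of setting changed direction. A change of direction between ratios not called was not counted. Gstm1 in the cluster made such a change, from 0.916 to 1.48 against the deeper nuclei. The lost calls were those of Slc7a11, Hmox1 and Srxn1 with at least 1000 genes per nucleus, of Slc7a11 and Hmox1 without the shallow cluster, and of Hmox1 among nuclei with Nrg1 and Areg UMIs.

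The count of members called higher in Cox10-/- hepatocyte-like nuclei, 5 in the report, was 2 with at least 1000 genes per nucleus, 2 with a minimum of 100 UMIs and 3 without the shallow cluster. The median log2 ratio of the members was 0.75 with at least 1000 genes and 0.75 without the shallow cluster. The count of pathway genes called higher, 28 in the report, was 14 with at least 1000 genes and 12 without the shallow cluster. Fewer nuclei or genes enter under each of these settings. The share of nuclei with a UMI of any member, 69.9% in Cox10-/- and 36.4% in wild-type hepatocyte-like nuclei after thinning, was 90.4% in Cox10-/- and 70.9% in wild-type nuclei unthinned, 46.7% in Cox10-/- and 20.3% in wild-type nuclei at 500 UMIs, and 14.1% in Cox10-/- and 3.02% in wild-type nuclei when 2 UMIs were required. In the Cox10-/- nuclei it was 59.8% without the shallow cluster, an alternative chosen after seeing the data, since the definition planned for it found no cluster. Gstp3 and Gstm1 weigh in such shares. After thinning, 29.4% of Cox10-/- and 6.57% of wild-type hepatocyte-like nuclei held UMIs of 2 or more members. Without these 2 genes the shares were 11.0% in Cox10-/- and 5.28% in wild-type nuclei. The median log2 ratio of all genes ran from -0.13 to 0.02 over the alternatives. Single genes under 50 UMIs, such as Nqo1, Hmox1 and Slc7a11 in hepatocyte-like nuclei, are limited by depth.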

Other observations

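The wild-type library had 1 nucleus in the cluster rich in Nrg1 and Areg. Of its 3485 UMIs, 13 were Slc7a11, 22 Gclc, 3 Txnrd1, 1 Nfe2l2, 1 Gstm1, 11 Nrg1 and 8 Areg, and Gclm, Hmox1, Srxn1, Nqo1 and Gstp3 had 0. Elsewhere in the wild-type library, Slc7a11 had 5 UMIs in hepatocyte-like nuclei and 0 in the other named types. A single nucleus supports no comparison between the libraries. In the Cox10-/- library 6 nuclei outside the cluster held UMIs of both Nrg1 and Areg, and they had 6 Slc7a11 UMIs, all in 1 nucleus, and 38 Gclc UMIs.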
